A study of Caenorhabditis elegans with 18 samples.

Results

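Small RNAs mapping to 30 genes with names of the nematode chemoreceptor type were followed through whole Caenorhabditis elegans of 7 genotype and stage groups, and their messenger RNAs through 2 more. The genes were chosen by name (sr, a family letter or letters, and a number, with the srp, srf, src and srl names left out) and by a mean of at least 5 RPM (reads scaled to a library total of 1000000) over the 2 N2 mixed-population small RNA libraries. Of 1150 genes with such a name, 30 reached that level and 1120 did not. The members nearest the threshold were sre-23, srd-42 and srh-1, with N2 means of 5.65, 5.47 and 5.44 RPM, and the nearest genes outside it were srh-33, srab-16 and srh-62, with 4.95, 4.41 and 4.35 RPM.

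The label of chemoreceptor genes held for 28 of the 30. These belong to 12 of the 21 receptor families named in the tables: 6 srh genes, 4 srg genes, 3 each of srd, srt and sre, 2 each of srx and srxa, and 1 each of sra, srbc, sri, sru and srsx. The other 2 only share the spelling. One of them, srgp-1, encodes a GTPase-activating protein and is given apart from the receptors wherever the results allow.

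Chemoreceptor genes encode G-protein-coupled receptors of the nematode's sensory neurons, most of them known or expected to be made in only a few cells of the animal. Endogenous small RNAs of C. elegans are in large part made by RNA-dependent RNA polymerases on an mRNA template and are loaded onto Argonaute proteins, in the germ line above all. MEG-3 and MEG-4 are disordered proteins of the germ granules of the embryo. RDE-11 acts with RDE-10 in the amplification of small RNAs during RNA interference.

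The groups each held 2 libraries. In mixed-stage populations grown on NA22 bacteria, small RNAs were sequenced from 4 meg-3 meg-4 lines and from the wild-type strain N2. All 4 lines carry meg-3(ax3055), with meg-4(ax3052) in line 1, meg-4(ax4310) in line 2, meg-4(ax4311) in line 3 and meg-4(ax4312) in line 4. The titles name strain JH3475 for the line 1 mRNA samples, and JH3672, JH3673 and JH3674 for lines 2, 3 and 4. All worms were kept at 20 C. In young mothers grown on HT115 bacteria with the L4440 vector, small RNAs were sequenced from rde-11(hj37) and N2 worms, and mRNAs from line 1 and N2 worms. One characteristic of the line 2 samples reads young mother where their titles read mixed population, and the titles were followed. The labels do not say that replicates were separate cultures, so p-values measure only the spread between these samples. In whole animals, fewer cells of a type and less RNA per cell cannot be told apart.

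Depth was 3820363 to 7465897 reads in the small RNA libraries and 21994906 to 45231464 reads in the mRNA libraries, where line 1 replicate 1 was the shallowest. In line 1 mRNA the 2 mutated genes were nearly gone: meg-3 had 0.312 and 0.284 in line 1, against 92.3 and 94.5 in N2, and meg-4 had no read in line 1, against 45.3 and 43.6 in N2. Small RNAs mapping to rde-11 were 773 and 711 RPM in rde-11 mutants and 658 and 623 RPM in N2, which does not check the mutation, since the labels do not describe the allele. The median log2 difference over all features was -0.29, -0.51, -0.54 and -0.67 in lines 1 to 4 and 0.11 in rde-11 for the RPM values as deposited. When libraries were rescaled by the trimmed-mean method of edgeR (TMM), it was 0.006, 0.018, 0.006 and 0.010 in the lines and -0.026 in rde-11. A "relative" log2 value below is the log2 difference of a gene minus the median of all features in that comparison.

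Most receptor small RNA came from few genes. The 28 receptor members took 76.4 to 83.4% of the RPM of all receptor genes in each library of the lines and of young mothers. They took 84.2 and 83.2% in the 2 N2 mixed libraries, where the rule itself sets a high share. Their sum was 1114 and 1040 RPM in rde-11 and 1195 and 1152 RPM in N2 young mothers, and 650 to 805 RPM in the 8 libraries of the lines, against 1194 and 1299 RPM in N2 mixed populations. No receptor member was at 0 in any small RNA library. Since RPM counts reads per gene and not per length, these values do not rank genes by small RNA density.

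Within the 28, sra-35, srt-43, srd-70 and srh-171 held 64.9 and 65.2% of the sum in rde-11 and 65.1 and 64.03% in N2 young mothers. They held 67.5 to 73.7% in the lines and 59.4 and 58.5% in N2 mixed populations. The median receptor member had 12.2 and 9.44 RPM in rde-11 and 13.9 and 13.3 RPM in N2 young mothers. It had 4.62 to 8.48 RPM in the lines and 14.95 and 22.9 RPM in N2 mixed populations.

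**Figure D1:**
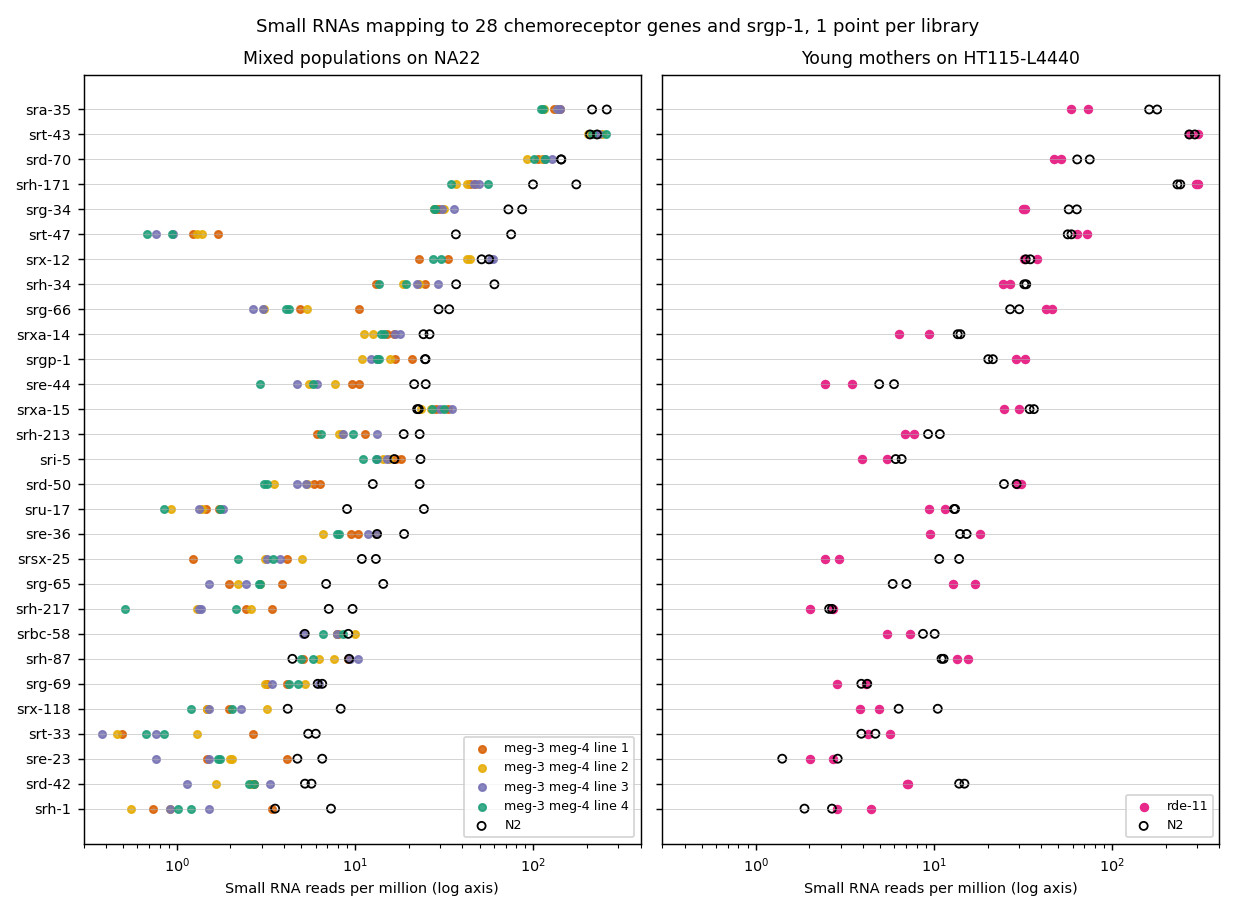
Small RNAs mapping to the 28 chemoreceptor genes and srgp-1, in RPM on a log axis, with 1 point per library. Left, the 4 meg-3 meg-4 lines (coloured) and N2 (open circles) in mixed populations; right, rde-11 (coloured) and N2 (open circles) in young mothers. srt-47 lies between 0.681 and 1.71 RPM in the lines and at 36.8 and 75.1 RPM in N2, while srt-43 overlaps between lines and N2.

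Assignment of reads is uncertain for some members, as the strand setting of the counting is not given in the sources used here. By the RefSeq annotation of a later build, WBcel235, 10 of the 30 overlap another annotated gene, 6 of them a protein-coding one. These 6 are sre-44 with zip-3, srsx-25 with agt-1, srh-217 with Y113G7B.27, srg-69 with F09E5.11, sre-23 with nol-16 and srh-1 with T11F9.10. The gene srt-47 overlaps 9 piRNA genes, srg-34 the microRNA gene mir-4935, and srt-43 and srgp-1 overlap noncoding RNA genes. Among the members, srg-65 and srg-66 are direct neighbours, as are srxa-14 and srxa-15.

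The first comparison, of rde-11 with N2 young mothers, used none of the libraries that chose the members. Small RNAs of 3 receptor genes rose (srg-65, srg-66 and srh-171) and those of 6 fell (sra-35, srsx-25, srg-34, srd-42, srxa-14 and srd-70). srgp-1 also rose. The calls are from limma on log2(RPM + 1) over all features with a mean of at least 2.5 RPM, at a Benjamini-Hochberg adjusted p below 0.05. The test covered 28 of the 30 genes, of which 4 were called higher and 6 lower. Of all features tested, 12.6% were called higher and 7.27% lower. srh-217 and sre-23 were under the filter. Both rde-11 libraries lay above both N2 libraries for 9 of the 30 genes and below them for 14, where 38.7 and 21.2% of all features did so.

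Among the genes that fell, sra-35, of the sra family, had 72.9 and 58.7 RPM in rde-11, against 179 and 161 RPM in N2. Both rde-11 libraries lay below both N2 libraries, and the log2 difference was -1.37 (SE 0.14, adjusted p = 2.26e-05, limma). srsx-25 had 2.95 and 2.44 RPM in rde-11, against 13.9 and 10.7 RPM in N2 (log2 -1.84, SE 0.25, limma adjusted p = 0.000256). Its reads may in part belong to agt-1, which it overlaps.

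srg-34 had 32.5 and 31.5 RPM in rde-11, against 63.4 and 57.1 RPM in N2 (log2 -0.89, SE 0.15, limma adjusted p = 0.00129). srd-42, a gene just above the threshold in mixed populations, had 7.14 and 7.10 RPM in rde-11, against 13.9 and 14.8 RPM in N2 (log2 -0.92, SE 0.20, limma adjusted p = 0.00689). The groups were apart for both genes. Each of these 4 genes and srg-65 was called with any 1 library left out. With DESeq2 srd-42 lost the call (adjusted p = 0.0652). Of the 10 members called by limma DESeq2 called 4, sra-35, srsx-25, srg-34 and srg-65. Of all features, limma called 19.8% and DESeq2 10.9%.

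srxa-14 had 6.399 and 9.34 RPM in rde-11, against 14.1 and 13.6 RPM in N2 (log2 -0.76, limma adjusted p = 0.0286). srd-70 had 51.4 and 47.1 RPM in rde-11, against 74.9 and 63.7 RPM in N2 (log2 -0.48, limma adjusted p = 0.0367). Both lost the call when 1 library was left out, in 3 of the 4 such fits, with adjusted p up to 0.165 for srxa-14 and 0.321 for srd-70. The neighbour of srxa-14, srxa-15, had 24.9 and 30.04 RPM in rde-11, against 36.4 and 34.4 RPM in N2, and was not called (log2 -0.36, limma adjusted p = 0.151). Both rde-11 libraries of srxa-15 lay below both N2 libraries, and it was called lower under TMM (log2 -0.50, adjusted p = 0.0447) and with the replicate number as a block (adjusted p = 0.0195).

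Among the genes that rose, srg-65 had 12.8 and 17.05 RPM in rde-11, against 5.87 and 7.01 RPM in N2 (log2 1.09, SE 0.22, limma adjusted p = 0.00425). Its neighbour srg-66 had 46.0 and 42.8 RPM in rde-11, against 26.8 and 30.1 RPM in N2 (log2 0.63, SE 0.16, limma adjusted p = 0.0138). Leaving out rde-11 replicate 1 or N2 replicate 1 ended the call of srg-66 (limma adjusted p up to 0.131).

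srh-171 had 296 and 302 RPM in rde-11, against 232 and 241 RPM in N2 (log2 0.33, limma adjusted p = 0.0392). srgp-1 had 28.8 and 32.3 RPM in rde-11, against 20.2 and 21.4 RPM in N2 (log2 0.53, limma adjusted p = 0.041). Neither was called with any 1 library left out, nor under TMM scaling (adjusted p = 0.282 for srh-171 and 0.131 for srgp-1). Under TMM 2 members were called higher, both srg genes, and 8 lower, where 7.24% of all features were higher and 10.4% lower. In the authors' deposited table no member was higher at an adjusted p below 0.05, and sra-35, srsx-25 and srg-34 were lower, where 4.66% of all features were higher and 5.2% lower.

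Other abundant members were not called in rde-11. srt-43 had 303 and 270 RPM in rde-11 and 291 and 271 RPM in N2 (log2 0.03, limma adjusted p = 0.908). srt-47 had 72.6 and 63.7 RPM in rde-11, against 56.4 and 59.1 RPM in N2 (log2 0.23, limma adjusted p = 0.289). srx-12 had 37.7 and 31.9 RPM in rde-11 and 34.8 and 32.8 RPM in N2, with overlapping groups.

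Of the 1120 genes below the threshold, 28 passed the filter in young mothers, and 2 were called higher and 3 lower in rde-11. That was 17.9% of those tested, near the 19.8% of all features. Genes called higher were srh-71 and srh-48, and srt-65, srx-7 and srg-62 were called lower, all named after their values were seen. srh-71, with 11.8 and 15.6 RPM in rde-11, against 0.235 and 2.47 RPM in N2, reached a mean of 2.5 RPM only in rde-11, and srg-62, with 1.72 and 2.44 RPM in rde-11, against 4.23 and 5.98 RPM in N2, only in N2, so that the filter kept each through its higher group and nothing is read from their calls.

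The second comparison that left the choosing libraries out was among the 4 meg-3 meg-4 lines. It asks whether lines with different meg-4 alleles differ, here in receptor small RNAs. Of 22 members with a mean of at least 2.5 RPM over the 8 line libraries, 1 was called by the F-test of limma, srx-12, against 15% of all features. Another 2 had an unadjusted p below 0.05, which makes 3 of the 22, against 35.3% of all features. They are sre-44 (adjusted p = 0.0591, and 0.303 under TMM) and srg-66 (adjusted p = 0.113, and 0.317 under TMM).

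srx-12 had 33.2 and 22.7 RPM in line 1, 44.2 and 42.5 RPM in line 2, 59.4 and 58.2 RPM in line 3, and 30.5 and 27.2 RPM in line 4 (limma F-test adjusted p = 0.00387). Line 3 was above the other lines and line 2 above lines 1 and 4, which overlapped each other. Line 3 stood 0.83 log2 above the mean of the other lines (SE 0.14, limma adjusted p = 0.0119), a contrast in which 0.572% of all features and no other member were called. Line 1 differed from the mean of the others by log2 -0.59 (SE 0.14, limma adjusted p = 0.009), where 24.8% of all features and 4 of the 22 members were called. The F-test called srx-12 with each of the 8 libraries left out, with adjusted p up to 0.0409. N2 mixed populations had 56.5 and 51.3 RPM.

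sre-44 had 9.59 and 10.5 RPM in line 1, 5.52 and 7.76 RPM in line 2, 6.09 and 4.75 RPM in line 3, and 2.95 and 5.79 RPM in line 4. Line 1 was above the other lines, by log2 0.81 over their mean (limma adjusted p = 0.0203). srg-66 had 4.92 and 10.5 RPM in line 1, 3.07 and 5.36 RPM in line 2, 3.04 and 2.66 RPM in line 3, and 4.29 and 4.09 RPM in line 4. Line 3 lay below the other lines without being called (log2 -0.64, limma adjusted p = 0.414), and line 2 overlapped both line 1 and line 4. The contrast of line 1 with the mean of the others called srg-66 (log2 0.82, limma adjusted p = 0.0384) and srgp-1 (log2 0.48, limma adjusted p = 0.0467).

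**Figure D2:**
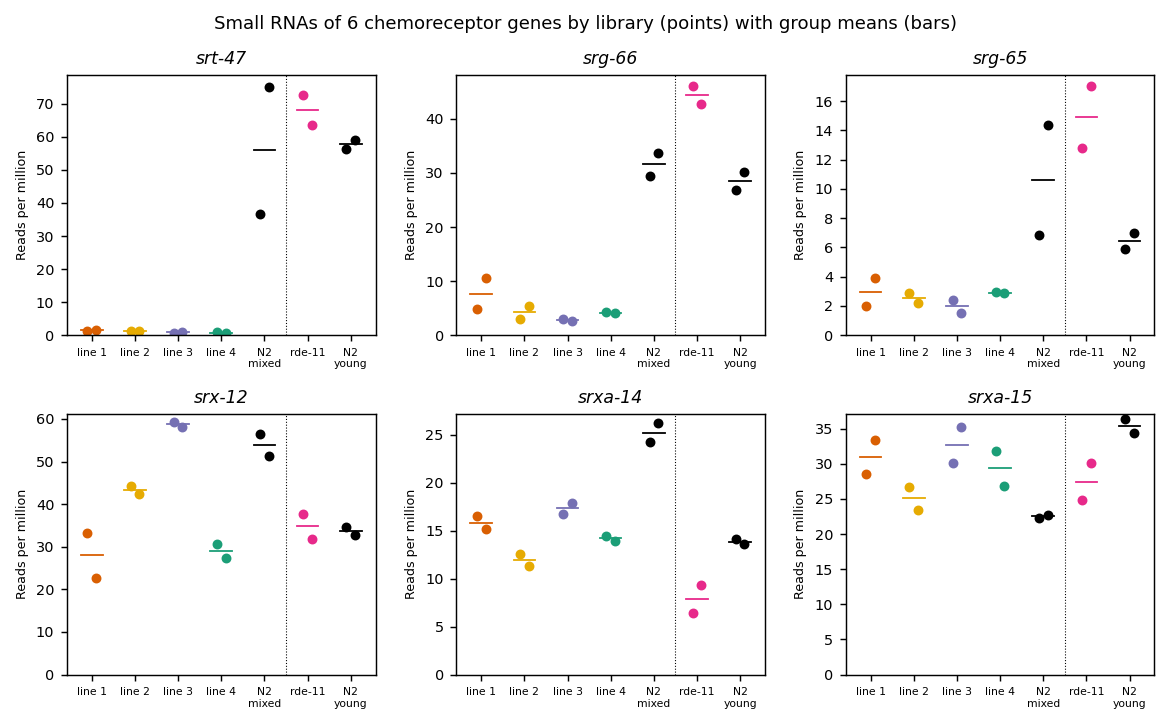
Small RNAs of 6 chemoreceptor genes in RPM from 0, with 1 point per library and a bar at the mean of the 2 libraries of a group. Left of the dotted line, lines 1 to 4 and N2 in mixed populations; right of it, rde-11 and N2 young mothers. srt-47 is near 0 in the 4 lines and at 36.8 and 75.1 RPM in N2, srg-65 is at 12.8 and 17.05 RPM in rde-11, and srx-12 is highest in line 3 among the lines, at 59.4 and 58.2 RPM.

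The lines were set against N2 mixed populations in a fit over all features, but for the members its calls are no test, because a high level in those same N2 libraries chose them. That choice can by itself place members below N2, so the calls are listed as a description and nothing is read from them. limma called 13, 20, 18 and 23 of the 30 lower in lines 1 to 4, where 8.12, 34.6, 37.5 and 48.7% of all features were lower. It called none of the 30 higher in any line, where 1.76, 3.83, 3.97 and 3.6% of all features were higher. At an unadjusted p below 0.05 there were 19, 23, 21 and 24 members in either direction, and 24.8, 48.6, 51.4 and 58.2% of all features. Under TMM 0, 2, 3 and 2 members were higher, where 3.3, 9.86, 11.5 and 11% of all features were higher. Under TMM 4, 5, 8 and 7 members were lower, where 4.53, 5.01, 5.2 and 5.09% of all features were lower. Members lower in the authors' deposited table numbered 5, 7, 8 and 7, where 4.7, 4.4, 4.22 and 4.54% of all features were lower, and 0, 0, 2 and 2 members were higher, where 3.73, 6.37, 7.42 and 7.56% of all features were higher.

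Both line libraries lay below both N2 libraries for 25, 26, 24 and 26 of the 30 in lines 1 to 4, where 48, 63.6, 64.9 and 68% of all features did so. They lay above both for 1, 1, 4 and 1, where 9.44, 9.19, 9.67 and 8.08% of all features did so.

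The gene furthest below N2 was srt-47. It had 1.23 and 1.71 RPM in line 1, 1.38 and 1.29 RPM in line 2, 0.761 and 0.951 RPM in line 3, and 0.938 and 0.681 RPM in line 4, against 36.8 and 75.1 RPM in N2. The mean of the lines was 50.1-fold lower than that of N2, and the relative log2 values were between -4.31 and -4.01. All 8 line libraries lay far below both N2 libraries, which differed 2.04-fold from each other. In rde-11 young mothers the same gene was at 72.6 and 63.7 RPM, as given above.

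sru-17 had 0.851 to 1.83 RPM over the 8 line libraries, against 9.02 and 24.3 RPM in N2 mixed populations, with relative log2 values from -2.39 to -2.09. The N2 replicates of this gene differed 2.70-fold. srg-66 had 2.66 to 10.5 RPM in the lines, against 29.4 and 33.8 RPM in N2, with relative log2 values from -2.54 to -1.69. Its neighbour srg-65 had 1.52 to 3.91 RPM in the lines, against 6.88 and 14.4 RPM in N2.

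srt-33 (mean relative log2 -1.36), srh-217 (-1.25), sre-44 (-1.23), srd-50 (-1.20) and srsx-25 (-1.15) followed in that order. Their line means were 6.05-fold, 4.44-fold, 3.50-fold, 3.80-fold and 3.65-fold lower than their N2 means. srh-171, with 34.6 to 55.99 RPM in the lines, against 99.7 and 174 RPM in N2, had a mean relative log2 of -1.06. Of these, sre-44, srh-217 and srsx-25 overlap another protein-coding gene.

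At the other end, srxa-15 was above N2 in every line library, with 23.5 to 35.2 RPM in the lines, against 22.3 and 22.8 RPM in N2 (mean relative log2 0.87). srt-43 overlapped N2 in lines 1, 2 and 4 and lay just above it in line 3, with 202 to 256 RPM in the lines, against 208 and 228 RPM in N2 (mean relative log2 0.55). srbc-58 overlapped N2 in all 4 lines and srh-87 in lines 1, 2 and 4, with mean relative log2 of 0.63 and 0.62. srxa-15 and srxa-14 are neighbours, but srxa-14 had 11.3 to 17.9 RPM in the lines, against 24.2 and 26.2 RPM in N2, so the pair stood on opposite sides of N2.

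The most abundant member in N2 mixed populations, sra-35, had 111 to 141 RPM in the lines, against 258 and 214 RPM in N2 (mean relative log2 -0.38). srd-70 had 92.5 to 127 RPM in the lines, against 143 and 144 RPM in N2 (0.13). srg-34 had 27.7 to 35.7 RPM in the lines, against 86.6 and 72.5 RPM in N2 (-0.88), and srh-34 had 13.2 to 29.1 RPM in the lines, against 60.5 and 36.9 RPM in N2 (-0.71). These genes were below N2 in all 8 line libraries. srgp-1, which is not a receptor gene, had 10.9 to 20.8 RPM in the lines, against 24.7 and 24.9 RPM in N2 (-0.25).

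The 2 kinds of mutant can be set side by side for each gene. Over the 26 receptor members tested in both, the mean relative log2 of the lines and the relative log2 of rde-11 had a Pearson r of -0.20 and a Spearman rho of -0.22 across genes, and over the 9657 features tested in all 5 comparisons these were 0.0195 and -0.165. They are given as a description, since genes are not independent replicates and the values of the lines rest on the N2 libraries that chose the members. For 12 of the 26 both values were on the same side of the median of all features. srg-65 was at 0.98 in rde-11 and -1.14 in the lines, and srg-66 at 0.52 in rde-11 and -2.09 in the lines. srsx-25 was low in both, at -1.95 in rde-11 and -1.15 in the lines. The stage, the food and the N2 libraries differ between the 2 comparisons, and the difference between them was not tested. The rde-11 gene itself had 816.5 to 3962 small RNA RPM in the lines, against 418 and 359 RPM in N2 mixed populations, and an mRNA signal of 8.28 and 9.64 in line 1, against 30.1 and 30.8 in N2 young mothers. Its part in the receptor values was not tested.

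**Figure D3:**
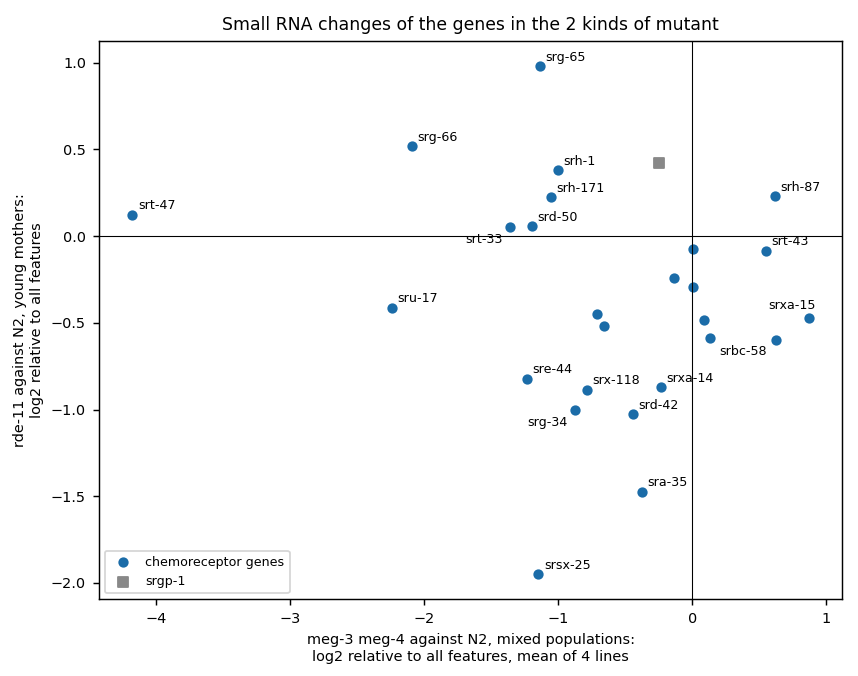
Small RNA log2 differences relative to the median of all features. The x axis gives the mean of the 4 meg-3 meg-4 lines against N2 in mixed populations, and the y axis rde-11 against N2 in young mothers, with 1 point per gene (circles for 26 receptor genes, a square for srgp-1). srt-47 is at -4.18 on the x axis and 0.12 on the y axis, and srsx-25 is at -1.15 and -1.95.

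N2 young mothers and N2 mixed populations differed in both stage and food, which cannot be told apart. Each library was scaled to its own total, over 42048 features in young mothers and 42400 in mixed populations. For 6 of the 30 genes both young-mother libraries were above both mixed libraries and for 15 both were below, where 39.9 and 20.2% of all features did so. The mixed libraries are the ones that chose the members, so these values are a description. sre-44 had 4.93 and 5.98 RPM in young mothers, against 24.9 and 21.5 RPM in mixed populations, and sri-5 had 6.11 and 6.595 RPM in young mothers, against 16.6 and 23.3 RPM in mixed populations. srd-42 had 13.9 and 14.8 RPM in young mothers, against 5.70 and 5.24 RPM in mixed populations, and srh-171 had 232 and 241 RPM in young mothers, against 99.7 and 174 RPM in mixed populations.

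A threshold set in young mothers would have taken other genes. Of the receptor genes outside the 30, 10 averaged at least 5 RPM in N2 young mothers. The highest, named after their values were seen, were srt-65, with 15.03 and 15.5 RPM in young mothers, against 1.66 and 6.28 RPM in mixed populations, and srx-7, with 11.3 and 15.7 RPM in young mothers, against 6.41 and 2.09 RPM in mixed populations.

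The mRNAs of the receptor members were near the detection limit. Each of the 28 had a scaled signal of 0 to 1.42 in the 4 mRNA libraries of young mothers, from 0 to 46 recovered reads. The sum over the 28 was 5.25 and 5.73 in line 1 and 5.09 and 5.61 in N2, which was 3.76 to 4.14% of the signal of all receptor genes. srgp-1 had 422 and 392 in line 1 and 438 and 462 in N2.

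**Figure D4:**
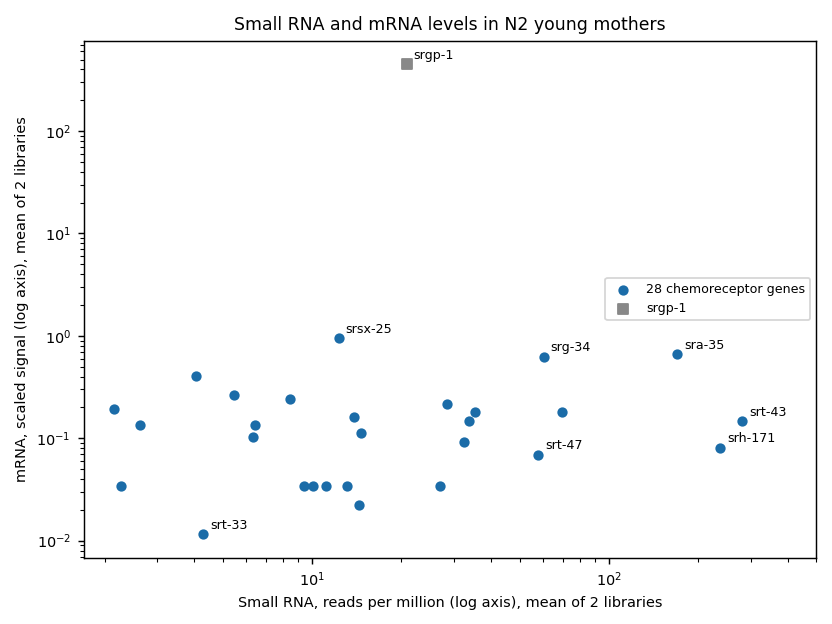
Small RNA level (RPM, log axis) and mRNA level (scaled signal, log axis) in N2 young mothers, each the mean of 2 libraries. Circles are the 28 chemoreceptor genes and the square is srgp-1. The receptor genes lie below 1 in mRNA at any small RNA level, and srgp-1 lies at 450.

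Line 1 was compared with N2 to see whether mRNAs changed in the mutant. limma on log2(signal + 0.1) called none of the 11 members that had a mean of at least 0.2, where 2.21% of all features were called higher and 2.6% lower. Of the 11, 9 were receptors, and 2 members had an unadjusted p below 0.05, against 29.7% of all features. edgeR on the recovered reads also called 0, as did DESeq2, which gave no receptor member an adjusted p. Of all features, edgeR called 5.32% and DESeq2 8.27%. The authors' deposited table, where 4.38% of all features were higher and 9.48% lower, also gave no receptor member an adjusted p and called no member. For 19 members the signal was under the filter, so that this fit did not test them.

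srg-34 came nearest among the receptors, with 0.267 and 0.305 in line 1, against 0.647 and 0.603 in N2, on 6 and 14 reads in line 1 and 29 and 26 reads in N2 (log2 -0.91, SE 0.29, limma adjusted p = 0.0926). Both line 1 libraries were below both N2 libraries. Its small RNAs were below N2 in line 1 mixed populations, as given above, but a high level in those N2 libraries chose the gene. Stage and food also differ from those of the mRNA samples. The small RNA difference is therefore a description and is not read as backing for the mRNA values. srsx-25, the receptor with the highest signal, had 1.42 and 0.785 in line 1 and 1.03 and 0.881 in N2, with overlapping groups.

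The mRNA of srx-12 was 0.356 and 0.196 in line 1, against 0.179 and 0.116 in N2, and was not called (log2 0.58, limma adjusted p = 0.336). srg-66 had 0.312 and 0.349 in line 1, against 0.223 and 0.209 in N2 (log2 0.44, limma adjusted p = 0.383). srt-47, whose small RNAs were nearly absent from the lines, had 1 and 3 mRNA reads in line 1 and 1 and 5 in N2.

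Genes that act beside the receptors gave small RNA calls of their own. The list of chemosensory signalling genes holds 26 G-protein subunits, cyclases, channels, kinases and trafficking factors, of which 16 were tested in rde-11. In rde-11, 5 rose and 1 fell, with a list median of log2 0.30, against 0.11 over all features, and under TMM 2 rose and 1 fell. Of all features, 12.6% rose and 7.27% fell by limma, and 7.24 and 10.4% under TMM. gpa-1, a G-protein alpha subunit gene, rose (log2 1.46, limma adjusted p = 2.83e-05), as did grk-2, a receptor kinase gene (log2 1.03, limma adjusted p = 0.00564). gpa-4, another alpha subunit gene, fell (log2 -1.09, limma adjusted p = 0.000417). egl-4, a cyclic-GMP-dependent kinase gene, rose (log2 0.59, limma adjusted p = 0.0248) but was not called under TMM (adjusted p = 0.0676).

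In the lines 4, 10, 9 and 11 signalling genes of 14, 14, 14 and 15 tested fell and 0, 2, 1 and 2 rose, with list medians of log2 -0.58, -0.68, -0.70 and -0.84. Over all features the medians were -0.29, -0.51, -0.54 and -0.67, and 8.12, 34.6, 37.5 and 48.7% fell, so the list medians relative to all features were -0.29, -0.17, -0.16 and -0.17. By limma 1.76, 3.83, 3.97 and 3.6% of all features rose. Under TMM 2, 3, 2 and 3 signalling genes fell, where 4.53, 5.01, 5.2 and 5.09% of all features fell. Under TMM 0, 2, 1 and 2 signalling genes rose, where 3.3, 9.86, 11.5 and 11% of all features rose. eat-16, a regulator of G-protein signalling, fell in each line (log2 -2.43, -1.81, -2.53 and -2.56 in lines 1 to 4, limma adjusted p from 1.64e-06 to 1.87e-05) and was also called in each under TMM, at log2 -2.11, -1.24, -1.93 and -1.82. gpa-4 fell in each line too, at log2 -1.85, -1.33, -1.74 and -1.65, also under TMM. tax-4, a subunit of the cyclic-nucleotide-gated channel, accounts for 1 of the higher calls in lines 2 and 4 and for the 1 signalling gene called by the F-test among the lines. It passed the filter in these comparisons only through the lines where it is high and was under it in lines 1 and 3 against N2, so nothing is read from its calls.

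limma called none of the 26 signalling mRNAs in line 1, with 2 at an unadjusted p below 0.05, edgeR 0 and DESeq2 1 higher. Among sensory neuron identity genes, the small RNAs of nsy-4, which acts in the asymmetry of the AWC olfactory neurons, rose in rde-11 (log2 0.57, limma adjusted p = 0.0193, and 0.0659 under TMM), 1 of 5 tested. They fell in all 4 lines by limma, at log2 -1.14, -1.11, -1.22 and -1.86, but under TMM the call held in line 4 alone (adjusted p = 0.0312). tir-1, an adaptor gene of the same asymmetry, rose in lines 2 and 3 by limma (log2 0.88 and 0.98), and under TMM it was higher in lines 2, 3 and 4 (log2 1.44, 1.57 and 1.14, adjusted p = 0.00844, 0.00553 and 0.0391). These were the calls among 4 identity genes tested in each line. Of all features, limma called 8.12, 34.6, 37.5 and 48.7% lower in lines 1 to 4, and 3.83 and 3.97% higher in lines 2 and 3. Under TMM 5.09% were lower in line 4, and 9.86, 11.5 and 11% higher in lines 2, 3 and 4. In rde-11 12.6% of all features were higher by limma and 7.24% under TMM. limma called none of the 12 identity mRNAs tested in line 1, with 2 at an unadjusted p below 0.05, while edgeR, DESeq2 and TMM scaling each called 1 higher. Of all mRNA features, edgeR called 2.42% higher, DESeq2 2.48% and TMM scaling 2.4%.

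Marker lists of other tissues moved with some of these comparisons. In rde-11 the small RNAs of 5 of 14 oocyte genes rose by limma, 2 under TMM and 2 with DESeq2. Of 8 neuron genes 3 fell by limma, 4 under TMM and 1 with DESeq2. Of all features, 12.6% rose and 7.27% fell by limma, 7.24 and 10.4% under TMM, and 6.63 and 4.24% with DESeq2. Of 15 sperm genes limma called 1 higher, but TMM scaling 1 lower and DESeq2 0. Of 6 intestine genes 1 rose and 3 fell, with 1 higher and 4 lower under TMM and 1 higher and 0 lower with DESeq2. None of 5 muscle genes or of 1 hypodermis gene was called by limma, with 1 and 0 at an unadjusted p below 0.05, while TMM scaling called 1 muscle gene lower and DESeq2 none. The summed oocyte list was 1083 and 1336 RPM in rde-11 and 831 and 1012 RPM in N2, and the neuron list was 95.7 and 88.7 RPM in rde-11 and 115 and 116 RPM in N2. The intestine list summed to 210 and 206 RPM in rde-11 and 79.6 and 74.6 RPM in N2. Of its 6 tested genes 3 fell, and the 1 that rose was elt-7, a GATA factor gene (log2 5.55). The N2 level of elt-7 is not given here. It may have passed the filter only through rde-11, where it is high, so nothing is read from its call or from the list sum. The part of these lists in the receptor results was not tested.

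In line 1 mRNA 8 of 16 oocyte genes fell by limma and by edgeR, 12 by DESeq2 and 3 under TMM. Of all features, 2.6% fell by limma, 2.9% by edgeR, 5.78% by DESeq2 and 1.26% under TMM, and 29.7% had an unadjusted limma p below 0.05. limma called none of 18 neuron, 34 sperm, 13 intestine, 12 muscle and 12 hypodermis genes, with 6, 4, 7, 6 and 0 at an unadjusted p below 0.05. edgeR also called none of these, while DESeq2 called 2 neuron, 3 intestine and 3 muscle genes higher and TMM scaling 1 neuron and 1 muscle gene. Of all features, DESeq2 called 2.48% higher and TMM scaling 2.4%. The summed oocyte signal was 8213 and 8358 in line 1 and 9961 and 9641 in N2. The summed neuron signal was 341 and 321 in line 1 and 305 and 291 in N2, and no gene of the neuron, oocyte or sperm lists was at 0 in both libraries of a group.

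Among small RNAs of mixed populations the neuron list summed to 106 to 172 RPM in the lines, against 183 and 230 RPM in N2. Its median log2 relative to all features was 0.008, 0.048, -0.21 and -0.20 in lines 1 to 4. limma called 2 of 9, 2 of 8, 4 of 8 and 4 of 8 neuron genes lower, and 1 higher in line 3. Of all features 8.12, 34.6, 37.5 and 48.7% were lower, and 3.97% higher in line 3. Under TMM 1 neuron gene was lower in each line, where 4.53, 5.01, 5.2 and 5.09% of all features were. Under TMM 1 was higher in lines 2 and 3, where 9.86 and 11.5% of all features were. The oocyte list summed to 579 to 933 RPM in the lines, against 1364 and 967 RPM in N2. limma called 0, 11, 12 and 12 of 14 oocyte genes lower in lines 1 to 4, where 8.12, 34.6, 37.5 and 48.7% of all features were lower. Under TMM it called 0, 2, 1 and 2 lower, where 4.53, 5.01, 5.2 and 5.09% of all features were lower. Among the lines 6 of 14 oocyte genes differed, and 1 under TMM, where 15 and 5.36% of all features did so. In line 1, where none was called, 6 oocyte genes had an unadjusted p below 0.05, and edgeR and DESeq2 called 0. Their part in the receptor values was not tested.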

How the data were processed

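Small RNA levels were deposited by the authors as RPM, and mRNA levels were deposited by the authors as a scaled signal. The authors also deposited a log2 fold change and p-values beside them, per the file headers, used only where named. The submitters' processing notes name build ce10 and the tools cutadapt, Bowtie2, HISAT2, HTSeq and DESeq2, without their roles. The annotation and strand setting are not given in the sources used here. Per the labels' protocols, a polyphosphatase step preceded small RNA library construction, so that triphosphorylated small RNAs could be cloned. Dividing each deposited value by the worth of 1 read gave whole reads for 100% of values, within 0.02.

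The test was limma 3.58.1 in R 4.3.3 with a mean trend, on log2(RPM + 1) for features averaging at least 2.5 RPM, and on log2(signal + 0.1) for features averaging at least 0.2. Benjamini-Hochberg adjustment covered all features, with calls below 0.05. The added constants understate fold changes of low genes. edgeR 4.0.16 and DESeq2 1.42.0 were run on the recovered reads. Lines were compared by an F-test over their 8 libraries. The fits of rde-11, mRNA and line 1 and the F-test among the lines were also run on simulated data without an overall shift. Nothing is read from those runs here. Counts of the gene lists under TMM, edgeR and DESeq2 were added after seeing the data.

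The members and the 8 gene lists (chemosensory signalling, sensory neuron identity, neurons, sperm, oocyte, intestine, muscle, hypodermis) were chosen with earlier results of these data known. Named members are the 12 with the highest N2 mean, those called, up to 8 at each end of the mean over the lines, and those nearest the threshold, and up to 4 called genes per list. Named outside this, after their values were seen, are sre-44 and srg-66 among the lines, the members not called in rde-11 or mRNA, and the genes said so in the text. For 1 of the 30 members, values of its own are not reported here.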

Additional observations from a re-analysis of the deposited data

Results flagged for a closer look

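Small RNAs of srx-12, a chemoreceptor gene, differed among the 4 meg-3 meg-4 lines (limma F-test adjusted p = 0.00387), by the test of the difference between lines itself. The means were 27.95 ± 7.42 RPM in line 1, 43.3 ± 1.18 RPM in line 2, 58.8 ± 0.847 RPM in line 3 and 28.9 ± 2.33 RPM in line 4 (SD, n = 2 libraries each).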

How the results depend on the processing

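Counts of members called moved with scaling and with the tool. In rde-11 the 4 higher calls became 2 under TMM or without a filter, 1 with DESeq2 and 0 in the authors' deposited table, and the 6 lower calls became 3 with DESeq2 and 3 in the authors' table. Of all features, 12.6% were higher by limma, 7.24% under TMM, 4.94% without a filter, 6.63% with DESeq2 and 4.66% in the authors' table. Lower were 7.27% by limma, 4.24% with DESeq2 and 5.2% in the authors' table. Leaving out 1 library gave 1 to 2 higher and 4 to 5 lower in rde-11, 1 to 2 differing among the lines, and 9 to 16, 11 to 22, 10 to 20 and 14 to 21 lower in lines 1 to 4, with 0 to 2 higher in line 3. The shares of all features moved in the same fits, to 4.66 to 12.7% higher and 4.46 to 6.52% lower in rde-11, 4.69 to 13.6% differing among the lines, and 5.51 to 18.6, 7.29 to 48.9, 6.92 to 52.5 and 15.8 to 55% lower in lines 1 to 4. TMM gave 4, 5, 8 and 7 lower in lines 1 to 4 and 2, 3 and 2 higher in lines 2 to 4. The authors' table gave 5, 7, 8 and 7 lower, and 2 and 2 higher in lines 3 and 4. No filter gave 1 lower in line 1, where 0.691% of all features were lower. A filter of 10 RPM, which left 18 members, gave 10 lower and 1 higher in line 3 and 15 lower in line 4, where 54.4% of all features were lower and 5.83% higher in line 3 and 66.7% lower in line 4. sri-5, called lower in line 4, was at log2 0.041 under TMM (adjusted p = 0.931). No member mRNA was called under TMM, the other constant or filters, edgeR, DESeq2, the replicate block or the authors' table. Of all features, 3.66% were called under TMM, 5.26% with the other constant, 5.32% by edgeR, 8.27% by DESeq2 and 17.8% with the block. It was 5.8% at a filter of 1 and 0.683% with no filter. DESeq2 and the authors' table gave no receptor member an adjusted p, so they could call none. No receptor had an N2 mean of at least 1, so the filter of 1 hardly tested them. The causes of these shifts were not tested, beyond the fewer genes of the filter and the fewer samples of the left-out libraries.

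The replicate numbers of the labels are not known to pair the samples. Same-numbered deviations correlated at 0.23 in rde-11, 0.21 in mRNA, and 0.52, 0.03, -0.15 and -0.28 in lines 1 to 4. With the number as a replicate block, 10 members were lower in rde-11, 21 in line 1, and 2 differed among the lines, srx-12 and sre-44, while the counts in mRNA and lines 2, 3 and 4 stayed within 1.5 times. Under the block 11.5% of all features were lower in rde-11 and 25.1% in line 1, and 22.2% differed among the lines. With the pairing crossed, an alternative chosen after seeing the data, line 3 had 1 higher and 19 lower and line 4 had 0 higher and 23 lower, where 4.44 and 3.82% of all features were higher and 41.5 and 49.9% lower. At this depth 19 of the 30 genes were under the mRNA filter.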
